A study of Mus musculus with 472 samples.

Results

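Cells of the posterior leptomeninges of 18-month-old mice were compared with those of 3-month-old mice in single-cell libraries whose column names mark them as 3-prime. Only cells in which 500 or more genes had a count entered, which left 39 of 53 cells at 18 months and 18 of 37 at 3 months. These 57 cells are part of 472 in the series. All animals were male C57BL/6 mice, and each age was 1 pool of 6 mice from which both anterior and posterior cells were taken. The labels name no treatment, genotype change or animal. Cells had been dispensed into the wells of a chip (the ICELL8 system) and sequenced without molecular identifiers that the labels mention. Since no animal can be told from another, each age is 1 sample. No test was run on the cells, and every difference below is between 2 pools.

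The leptomeninges are the pia and the arachnoid, thin membranes on the brain surface that hold fibroblast-like cells, blood vessels with their mural cells, and resident macrophages. Their fibroblast-like cells lay down collagen, secrete carriers and growth factor binding proteins into the cerebrospinal fluid, and carry transporters that move ions, organic anions and drugs. The arachnoid layer forms a barrier between this fluid and the dura outside it.

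Kept cells held 2579478 counts in all at 18 months and 1202100 at 3 months. Single cells had between 8630 and 279516 counts (median 39283) at 18 months and between 14809 and 279706 (median 34163) at 3 months. Median genes counted per cell were 1027 and 1147, and 719 and 684 once each cell had been thinned to 5000 counts. Mitochondrially encoded genes took 25.3% and 22.1% of the summed counts. The deepest cell gave 10.8% of the 18-month sum and 23.3% of the 3-month sum, so 1 cell weighs more in the younger group. The groups shared 0 cell barcodes. Counts of Y-linked genes and none of Xist were found at both ages, as the label male requires. Of the markers for neurons, oligodendrocytes, Schwann cells, mast cells, T cells and choroid plexus, none was measured as defined below, and of the astrocyte markers only the connexin Gja1 was (75.98 against 1.664 CPM, 6 and 1 cells).

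Smooth muscle markers were the most widely counted of the cell type lists, with at least 3 of 6 in 27 of 39 cells at 18 months and 13 of 18 at 3 months. At least 3 of 12 fibroblast markers were counted in 20 of 39 and 5 of 18 cells, and their summed level per cell ranged from 0 to 15443 CPM (median 1442) and from 0 to 7013 CPM (median 317.3). The fibroblast markers Lum, Pdgfra and Serpinf1 had no count at either age. At least 3 of 12 macrophage markers were found in 6 of 39 and 4 of 18 cells, and at least 3 of 13 endothelial markers in 9 of 39 and 3 of 18. Markers overlapped: among fibroblast, smooth muscle, pericyte, endothelial and macrophage lists, 25 of 39 and 9 of 18 cells held at least 3 markers of more than 1 list. Cells were therefore described gene by gene and as sums, and not sorted into types. In such sums, fewer cells of a type and less RNA per cell cannot be told apart.

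Expression was summed over the cells of an age and given as CPM, the count scaled by the group's total, and ratios are log2 of 18 over 3 months with 1 CPM added to both sides. A gene was measured where the mean of both ages was at least 20 CPM and at least 3 cells held a count, which 4965 genes did. Of these, 1656 (33.4%) were at least 2-fold higher and 1431 (28.8%) at least 2-fold lower at 18 months, with a median log2 ratio of 0.07. A stricter reading asked for 2-fold also in the mean of per-cell CPM, for a larger share of cells with a count, and for no cell holding over 50% of the counts in the higher group. It was met by 467 genes (9.41%) that were higher at 18 months and by 3.54% of measured genes that were lower, called stably higher and stably lower below. These 4 shares are the background for the counts of every gene list, and a share near them is no result about the list. The limit on 1 cell is easier to meet among 39 cells than among 18, so these counts do not compare the directions. As a yardstick, the 16 anterior cells at 3 months were set against the 18 posterior cells of the same age and library kind. Of 3827 genes measured there, 28.2% (1079) stood 2-fold or more above the posterior cells and 39.8% (1524) below them. The stricter reading was met by 3.71% and 6.25%. Differences of 2-fold are thus about as common between 2 small groups of the same age, and a gene's cells say more than its fold.

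**Figure D1:**
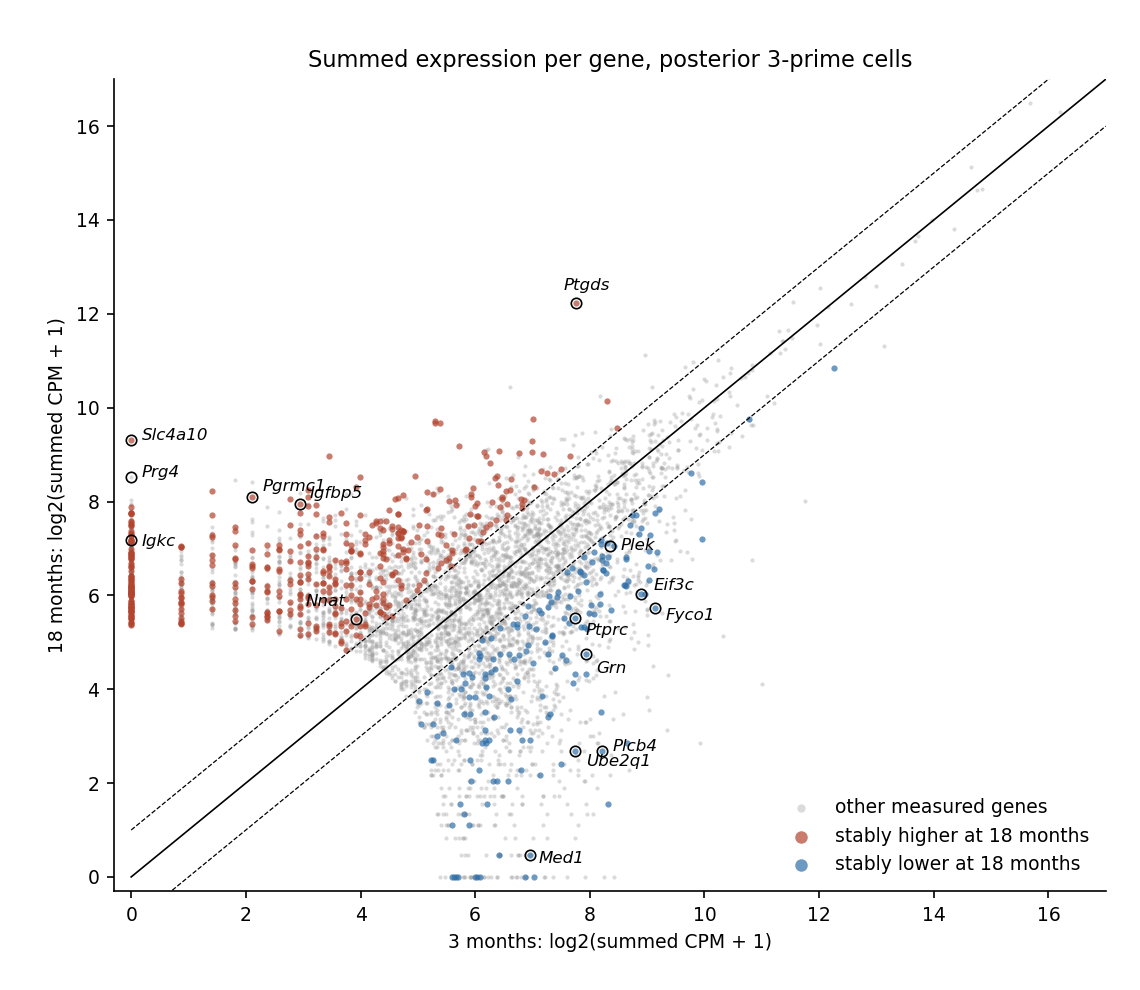
Summed expression of the 4965 measured genes as log2(CPM + 1), 3 months on the horizontal and 18 months on the vertical axis. The solid line marks equal values and the dashed lines 2-fold. Red and blue points are the stably higher and stably lower genes, and open circles carry the names of 15 genes given in the text. Ptgds lies farthest above the 2-fold band among highly expressed genes, and the column at 0 on the horizontal axis holds genes with no count at 3 months.

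Of 10 genes on the arachnoid list 3 were measured, and these were higher at 18 months. Ptgds, which encodes the prostaglandin D synthase that meningeal cells secrete as a carrier protein, had 4839 CPM at 18 months and 215.5 CPM at 3 months. Per cell it ranged from 0 to 55241 CPM with a median of 2736 at 18 months, and from 0 to 1186 CPM with a median of 0 at 3 months. It was found in 38 of 39 older cells (97.4%, exact 95% interval 86.5% to 99.9%) and in 7 of 18 younger ones (38.9%, 17.3% to 64.3%). After thinning to 5000 counts the shares were 89.7% and 33.3%. The ranges overlap, but the highest younger cell lies below the median of the older cells. The log2 ratio was 4.48 (interval 4.31 to 4.67). By mean per-cell CPM it was 4.97, outside this interval. Intervals of ratios, here and below, cover counting error only and leave out differences between cells and between animals. PCR copies of 1 molecule cannot be recognised here, so these intervals can be too narrow. Intervals of shares, here and below, cover the drawing of cells from 1 pool. They leave out differences between animals and are no test between ages.

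Ptgds was not restricted to cells that would be thought to make it. All 5 older cells with at least 4 macrophage markers had a count, at a median of 8128 CPM and 106528 counts per cell, against 33 of 34 other cells at a median of 2659 CPM and 38248 counts. At 3 months 2 of 4 such cells and 5 of 14 others had one. The share of Ptgds cells is therefore not above that in macrophage-marker cells at either age, and it is read here as no measure of how many cells make the enzyme. Wells under 500 genes, which were left out, differed by age in the same direction: 16070 CPM and 13 of 14 wells at 18 months, 1403 CPM and 9 of 19 wells at 3 months. The part of free RNA in the Ptgds ratio was not tested. The anterior cells at 3 months had 81.7 CPM, from 1 of 16 cells.

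Slc47a1, an exporter of organic cations, and Abcg2, an efflux pump, both expressed in the arachnoid barrier, were the other measured members of the 10-gene arachnoid list. All 3 were stably higher, beside 9.41% of all measured genes. Slc47a1 had 200 counts in 7 of 39 cells and none at 3 months, at least 31.1-fold higher. The bound sets 3 counts over the whole 3-month group (2.496 CPM) in place of 0 and is used for all such genes below. Abcg2 had 64.4 CPM in 7 cells against 6.66 CPM in 2 cells (log2 ratio 3.09, interval 2.26 to 4.51). Since Ptgds was in nearly every older cell, a cell-by-cell count of the list follows mainly Ptgds; 3 or more of the 10 genes were present in 6 of 39 older cells. Of the pial list, Cxcl12, a chemokine made by meningeal fibroblasts, had 125.2 CPM in 9 cells and no count at 3 months (at least 50.2-fold higher). S100a6 had 187.6 against 3.33 CPM, with 61.2% of the older counts in 1 cell, and 585 CPM in the anterior cells of 3 months.

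Solute transporters held the highest ratio of the naming rule. Slc4a10, which carries sodium and bicarbonate, had 631 CPM at 18 months and no count at 3 months, at least 252.9-fold higher. It was counted in 12 of 39 older cells (30.8%, 17.0% to 47.6%) and in 0 of 18 younger cells, with an exact 95% upper limit of 18.5%. Single cells reached 15841 CPM, and the median among those with a count was 1560 CPM. The highest cell gave 39.4% of the counts, and without it the older group still had 388.35 CPM over 11 cells. Among the wells left out, 1 of 10 anterior wells of 3 months held 9 counts of it, so the gene was not absent at that age. Slc26a2, a sulphate transporter, had 120 CPM in 10 cells, and Slc26a7, an anion exchanger, 79.9 CPM in 6. Neither had a count in the 3-prime posterior cells of 3 months (at least 48.2-fold and 32.0-fold higher). Slc26a2 was not absent at that age, with 4 counts in 1 of 16 anterior cells. In the full-length posterior libraries described below it had 35.9 CPM in 6 of 49 cells of 3 months, against 59.5 CPM at 18 months. Slc23a2, a vitamin C transporter, had 98.5 CPM in 10 cells against 3.33 CPM in 1 cell.

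Of 43 genes on the solute transporter and barrier list 23 were measured. Of these 11 were at least 2-fold higher, 9 of them stably, against 33.4% and 9.41% of all measured genes, and 7 were at least 2-fold lower, none stably, against 28.8% and 3.54%. The median log2 ratio was 0.91, beside 0.07 over all genes. It was 0.48 by the mean of per-cell CPM, 0.46 after thinning to 5000 counts and 1.901 without the highest cell of each gene, so its size depends on how cells are weighted. Among the lower members was Abcb1a, the efflux pump P-glycoprotein of brain endothelium (186.1 against 711 CPM, log2 ratio -1.93). A single cell gave 96.3% of its younger counts. The list therefore holds members in both directions, and those stably higher are mostly ion, anion and organic solute carriers.

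The transporter genes were counted together in a small set of older cells. A group of 6 genes, chosen after their values were seen (Slc4a10, Slc47a1, Slc26a7, Slc26a2, Slc23a2 and Abcg2), was looked at cell by cell. At least 3 of the 6 were counted in 9 of 39 older cells. The genes were picked among those with few or no counts in the younger posterior cells, so no such count is given for 3 months. Among the 12 cells with Slc4a10, 7 also had Slc47a1 and 6 had Slc26a7, while 0 of the other 27 older cells had either. Slc26a2 was found in 7 of the 12 and 3 of the 27, and Igfbp5, a secreted binding protein of insulin-like growth factors, in 8 and 6. Col1a1, a fibrillar collagen chain, was in 4 of the 12 and 4 of the 27. Acta2, the smooth muscle actin, was in 5 of the 12 and 23 of the 27. Depth was alike in both sets, with medians of 39088 and 39283 counts and 1033 and 1015 genes. These co-counts describe the pool and have no replicate.

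**Figure D2:**
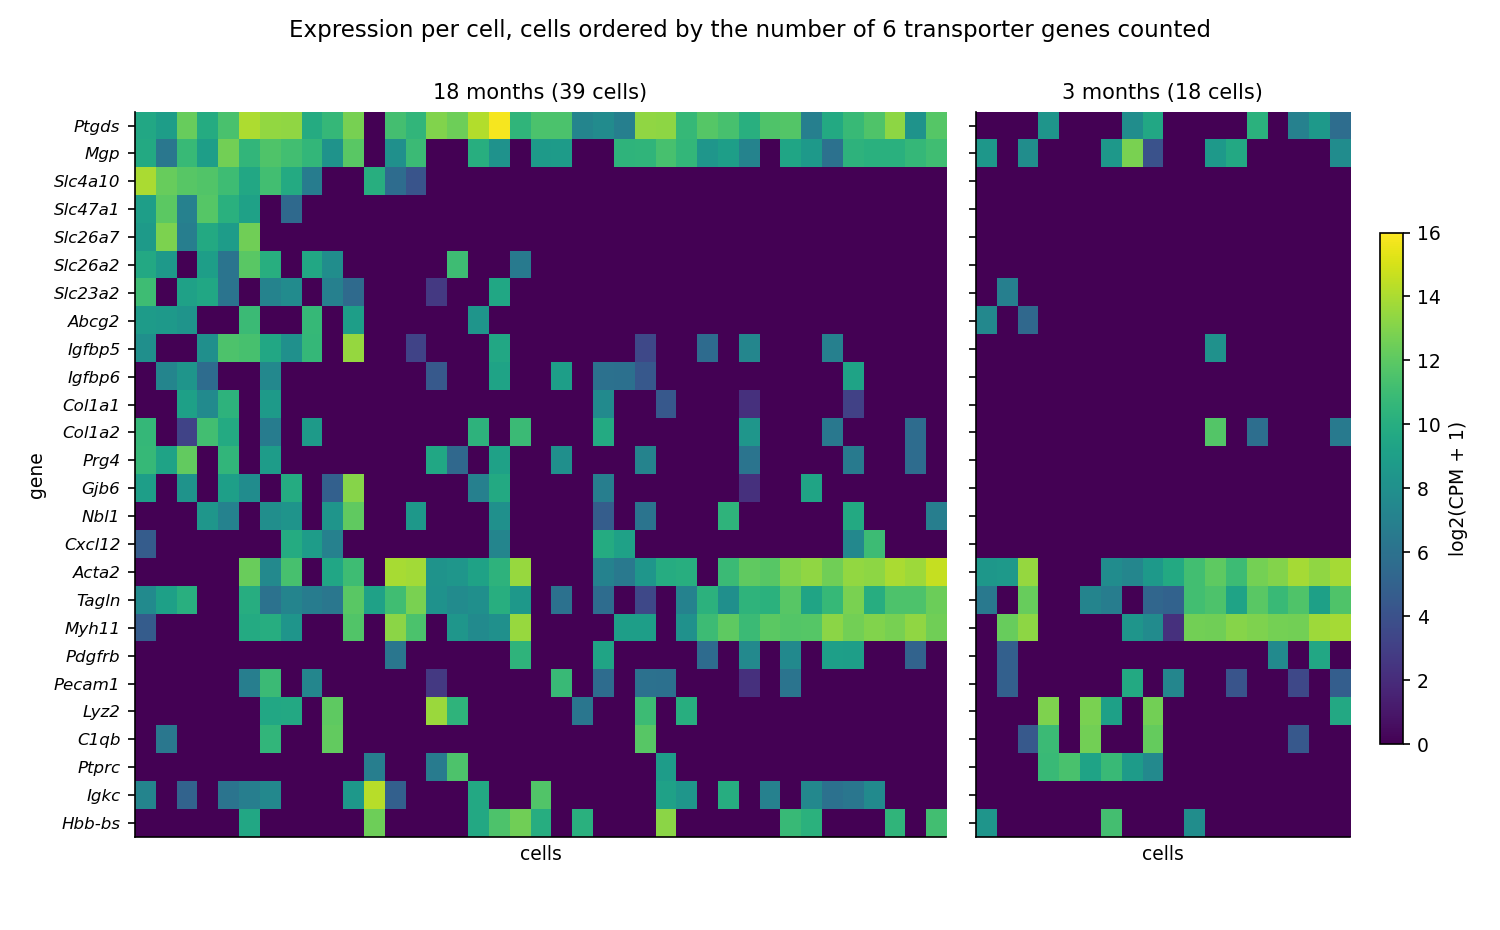
Expression of 26 genes (rows) in each kept cell (columns) as log2(CPM + 1), with the 39 cells at 18 months on the left and the 18 cells at 3 months on the right. Cells are ordered by how many of the 6 transporter genes from Slc4a10 to Abcg2 were counted. The 9 older cells with 3 or more stand at the left edge.

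Fibroblast and matrix genes were divided. Of 12 fibroblast markers 8 were measured, 5 at least 2-fold higher (3 stably) and 1 lower, beside backgrounds of 33.4% higher, 9.41% stably higher and 28.8% lower, with a median log2 ratio of 2.174. Col1a1 had 65.5 CPM in 8 older cells and no count at 3 months (at least 26.3-fold higher). Mgp, matrix Gla protein, an inhibitor of calcification, was counted in 32 of 39 and 8 of 18 cells, with 1127 against 313.6 CPM (log2 ratio 1.84). Its per-cell median was 677 CPM at 18 months and 0 at 3 months, although the highest younger cell (7013 CPM) lies above the highest older cell (6303 CPM). After thinning, 76.9% of older and 16.7% of younger cells had a count. Col3a1, another fibrillar collagen, went the other way (35.3 against 107.3 CPM, -1.58), with 4 and 2 cells, and Gsn, the actin-severing protein gelsolin, had 221.4 against 138.9 CPM (0.67).

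Among 30 fibrillar and basement membrane genes, 19 were measured, 4 at least 2-fold higher and 8 lower, with a median of 0.01. Over all measured genes 33.4% were higher and 28.8% lower. Below Col1a1, the highest was Col12a1, a collagen that decorates fibrils (62.4 CPM in 4 cells, 70.8% of it in 1, and no count at 3 months). The lowest were genes of vessel walls and of fibril assembly. Lama4, a laminin chain of vascular basement membrane, had 8.53 against 127.3 CPM (-3.75, 3 and 5 cells). Col5a1, which starts collagen fibrils, had no count at 18 months and 77 counts in 3 cells at 3 months, at least 55.1-fold lower. Col4a1, the main basement membrane collagen, was counted in 6 of 39 older cells, at up to 1428 CPM, and in 10 of 18 younger cells, at a median of 170.7 and up to 4260 CPM. It was stably lower, with 146.5 against 995 CPM (-2.75, -2.93 to -2.60), and overlaps Col4a2 on the opposite strand.

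Secreted matrix genes were mostly within 2-fold. Among small proteoglycans and other secreted matrix genes, 3 of 10 measured stood 2-fold or more higher and 0 lower (median 0.89). The shares over all measured genes were 33.4% and 28.8%. Prg4, which encodes the lubricant lubricin, had 365.6 CPM in 13 of 39 older cells and no count in 18 younger ones, at least 146.5-fold higher. A single cell held 59.0% of its counts, so it was not stably higher, and without that cell 157.5 CPM remained in 12 cells. Spp1, osteopontin, had 108.2 CPM in 6 cells, 75.99% of it in 1. The lowest members, Ccn2 (-0.24) and Thbs1 (0.08), are matrix-associated proteins induced by growth factors.

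Genes of 2 growth factor pathways stood in both directions. Of 9 measured genes of the insulin-like growth factor pathway, 5 stood 2-fold or more higher and 2 lower (median 1.58), beside 33.4% and 28.8% of all measured genes. Igfbp5 was counted in 14 of 39 older cells, at up to 11525 CPM, and in 1 of 18 younger cells at 276.03 CPM. Its sum was 245.01 against 6.66 CPM (log2 ratio 5.01, 4.21 to 6.42). The ratio was 2.286 among cells with 300 or more genes and 7.29 among those with 1000 or more, so its size depends on which cells are kept. Igfbp6, another binding protein, had 72.5 CPM in 11 cells and no count at 3 months (at least 29.05-fold higher). Both measured receptors were lower, Insr at 7.75 against 53.2 CPM (-2.63) and Igf1r at 26.4 against 77.4 CPM (-1.52, with 96.8% of the younger counts in 1 cell), and Igf2r had no count at either age. In the BMP and TGF-beta pathway 9 of 18 measured genes stood 2-fold or more higher and 3 lower (median 0.67), read against the same backgrounds. The BMP ligands Bmp2 and Bmp5 had 65.5 and 62.0 CPM and no count at 3 months (at least 26.3-fold and 24.9-fold higher), each in 3 cells, with 96.9% of Bmp5 in 1 cell. Tgfb2, a TGF-beta ligand, had 1.94 against 192.996 CPM (-6.04), with 97.4% of its younger counts in 1 cell. Its receptor gene Tgfbr2 was stably lower, at 47.3 against 267.03 CPM (-2.47) in 4 cells of each age, with 91.8% of the older counts in 1 cell.

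**Figure D3:**
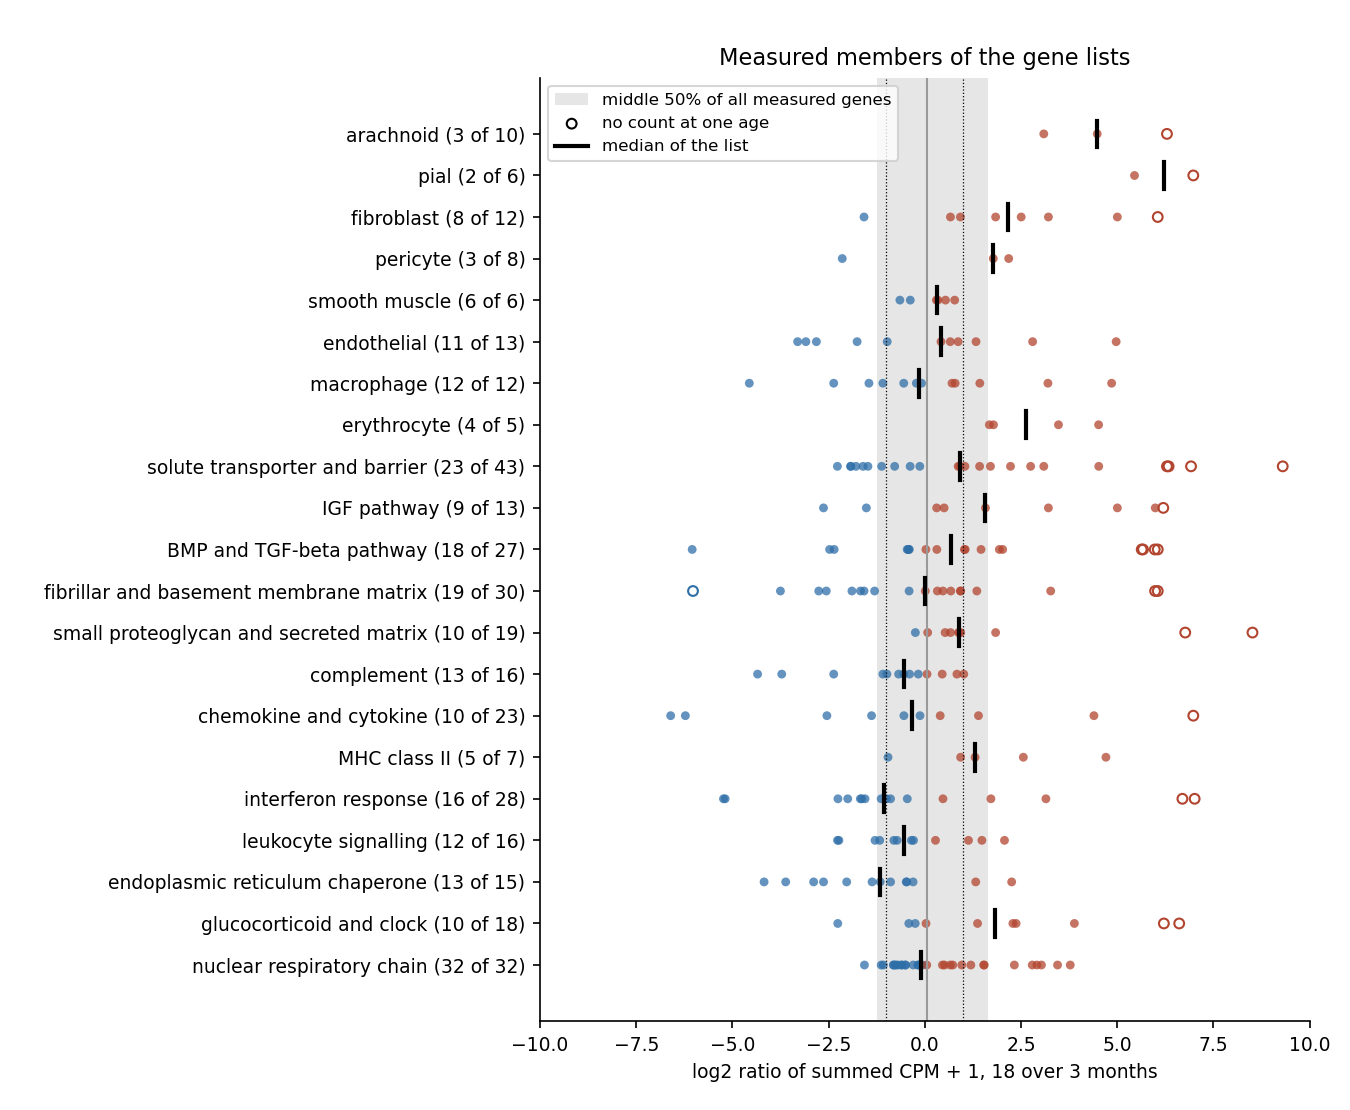
Log2 ratios of the measured members of 21 gene lists, 18 over 3 months, with the number measured of those listed in brackets. Each point is a gene, an open point had no count at one age and its place depends on the 1 CPM added, and the black bar is the list's median. The grey band holds the middle 50% of all measured genes. Arachnoid, pial and erythrocyte members all lie to the right of 2-fold, and the 6 smooth muscle members all lie within 2-fold.

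Immunoglobulin transcripts were counted in the 3-prime posterior cells of 18 months and not in those of 3 months. Igkc, the constant region of the kappa light chain made by B cells and plasma cells, had 144.99 CPM in 18 of 39 older cells and none in 18 younger or 16 anterior cells, at least 58.1-fold higher. The share was 46.2% (30.1% to 62.8%), and 30.8% after thinning. At 18 months 2 cells held 5 of the other 12 B cell and plasma cell markers and 60.7% of the Igkc counts. The first had Ighm and Cd79a, at 890 CPM each, and Igkc at 3205 CPM, but no Jchain. The other, with 8630 counts the shallowest kept cell, had Jchain, which joins secreted immunoglobulin, at 20278 CPM, Igkc at 20046 and Ighm at 12283 CPM, and no Ptgds. Outside these cells Igkc was counted in 16 of 37 cells, at 57.6 CPM. Wells under 500 genes had 302.2 CPM at 18 months and 0 at 3 months. In the full-length posterior libraries described below, 1 of 49 cells of 3 months held Igkc (6.08 CPM over the group). A gene of the B cell list was counted in 2 of 16 anterior cells of 3 months. These transcripts were thus not absent at that age. Of 5 older cells with at least 4 macrophage markers, 1 had Igkc.

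Blood cell transcripts also differed. All 4 measured erythrocyte genes, the globins, were at least 2-fold higher at 18 months (median log2 ratio 2.631), 2 of them stably. Over all measured genes 33.4% were higher and 9.41% stably higher. The 5 listed genes summed to 2274 CPM at 18 months (per-cell median 421.8) and 464.2 CPM in the younger posterior cells (median 0). Anterior cells of 3 months stood between, at 1374 CPM (median 364.6), and 9 of 16 had a count. Low globin was thus not shared by both groups of that age, and the part of age in the ratios was not tested. Hbb-bt had 365.2 against 15.0 CPM (4.52) and Hbb-bs 584 against 51.6 CPM (3.48), in 14 and 12 older and 2 and 3 younger cells. Hba-a1 was counted in 29 of 39 and 6 of 18 cells (682 against 212.1 CPM, 1.679). A single younger cell gave 68.6% of the Hba-a1 counts of its age. The globin pairs are near-identical copies, so counts may be split between them. Genes of granulocytes were carried by 1 older cell, which held every S100a8 count (148542 CPM in that cell) and every S100a9 count. At 3 months S100a8 was counted in 3 cells.

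Mural and vascular genes did not share a direction. By summed CPM all 6 smooth muscle markers were within 2-fold (median 0.32). Their summed level per cell, however, had a median of 1601 CPM at 18 months and 9160 CPM at 3 months. Acta2 had 5993 against 4124 CPM (log2 ratio 0.54) in 28 of 39 and 15 of 18 cells, and Tagln, the actin-binding transgelin, 2069 against 1206 CPM (0.78). Myh11, smooth muscle myosin, had 2640 against 4132 CPM (-0.65) with per-cell medians of 498 and 5463 CPM, and Cnn1 stood at -0.38. The list's median was -0.60 by mean per-cell CPM and -0.23 after thinning, so its sign depends on how cells are weighted. Pericyte genes split, with Pdgfrb, the PDGF receptor of mural cells, at 105.4 against 22.5 CPM (2.18, 9 and 3 cells) and Cspg4, the NG2 proteoglycan, stably lower at 64.4 against 287.8 CPM (-2.14, 8 and 7 cells).

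Among 11 measured endothelial genes, 3 stood 2-fold or more higher and 4 lower (median 0.42), beside 33.4% and 28.8% of all measured genes. Among the higher members were Kdr (56.6 CPM against 1 count, a ratio of 68.0 with a log2 interval of 3.59 to 11.40) and Flt1 (209.3 against 29.1 CPM, 2.80). Both encode receptors for vascular endothelial growth factor. Most of their older counts came from 1 cell (68.5% and 52.4%). Among the lower members were Emcn (16.3 against 170 CPM, -3.30) and Vwf, the von Willebrand factor (57.8 against 499 CPM, -3.09). A single younger cell held all Emcn counts and 81.3% of those of Vwf, so neither was stably lower.

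Macrophage markers, 12 of them measured, stood 2-fold or more higher in 3 cases and lower in 4, with 0 stably either way (median -0.15), shares near the 33.4% and 28.8% of all measured genes. Lyz2, lysozyme, had 1295 against 1372 CPM (-0.08) in 8 of 39 and 5 of 18 cells. Cd68, a lysosomal glycoprotein, had 245.01 against 7.49 CPM (4.86) and the scavenger receptor Cd163 69.4 against 6.66 CPM (3.20), with 71.8% and 73.7% of the older counts in 1 cell. C1qa, a subunit of the first complement component, had 39.5 against 207.97 CPM (-2.37), and Lyve1, a hyaluronan receptor of perivascular macrophages, 6.59 against 178.02 CPM (-4.56), nearly all from 1 younger cell. Ptprc, the pan-leukocyte phosphatase CD45, was stably lower, with 44.6 CPM in 4 of 39 older cells against 212.96 CPM in 6 of 18 younger cells (-2.23, -2.59 to -1.93). Plek, a signalling protein of platelets and leukocytes, had 132.2 CPM in 4 and 325.3 CPM in 5 cells (-1.29), and -0.93 among cells with at least 1000 genes. At least 3 macrophage markers were found in 15.4% of older and 22.2% of younger cells, and the part of this in both ratios was not tested.

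Other immune lists held members in both directions. Their counts are read against 33.4% higher and 28.8% lower over all measured genes. Of 10 measured chemokines and cytokines, 3 were at least 2-fold higher, with Cxcl12 and Ccl6 (4.40) at the top, and 4 lower. The lowest were Ccl9 (1.55 against 247.07 CPM, -6.60) and Cxcl2, a neutrophil attractant (7.75 against 652 CPM, -6.22), each with 1 older cell and over 50% of the younger counts in 1 cell. Of 5 measured genes for MHC class II antigen presentation, 3 were at least 2-fold higher. H2-Aa was stably so, in 17 of 39 against 2 of 18 cells (452.03 against 75.7 CPM, 2.56), while H2-Eb1 stood at -0.95. The 7 listed class II genes summed to 1016 CPM at 18 months and 537.4 CPM in the younger posterior cells. Anterior cells of 3 months reached 927.7 CPM. The per-cell median was 147.9 CPM at 18 months and 0 in both younger groups. In the complement list 1 of 13 genes was at least 2-fold higher and 4 lower (median -0.55). C5ar1, the receptor for the anaphylatoxin C5a, was lowest (3.10 against 82.4 CPM, -4.35).

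Interferon-induced genes had a median of -1.06 over 16 measured members. Of these, 4 were at least 2-fold higher and 8 lower, 0 stably either way, beside 33.4% and 28.8% of all measured genes. Ifit1 and Oasl2, which act against viral RNA, had no count at 3 months (at least 51.4-fold and 41.2-fold higher), with 71.6% and 66.0% of their counts in 1 cell. Oas1a (-5.23) and Ifitm1 (-5.19) were lowest. Without the deepest cell of each age the median was 0.13, so the direction of this list rests on those cells. Endoplasmic reticulum chaperones had 7 of 13 measured members at least 2-fold lower and 2 higher, beside 28.8% and 33.4% of all genes, with a median of -1.16. Of the 13, 0 were stably lower and 1 was stably higher, beside 3.54% and 9.41% of all measured genes. Pdia4, a disulphide isomerase (5.04 against 108.1 CPM, -4.18), and Dnajb9, a co-chaperone (11.2 against 148.9 CPM, -3.61), were lowest, and Herpud1 (2.26) and P4hb (1.325) highest. The chaperone median was -0.62 without the deepest cells, -0.49 by the mean of per-cell CPM and -0.44 with all cells thinned to 5000 counts.

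In the prostaglandin and lipocalin list, 2 of 8 measured genes stood 2-fold or more higher and 3 lower (median -0.28). The shares over all measured genes were 33.4% and 28.8%. Besides Ptgds, Ptgr1, a prostaglandin reductase, had 77.5 CPM in 4 older cells and no count in posterior cells of 3 months, but 173.7 CPM in anterior cells of that age. Of the lower members 0 were stably lower, and the lipocalins Lcn2 and Apod were among them. Lcn2, an iron-carrier binding protein of the acute phase, had 6.203 against 969 CPM (-7.07) in 2 and 3 cells, and Apod, a lipid carrier, 106.6 against 1818 CPM (-4.08) in 11 and 3 cells. A single younger cell gave 96.3% of the Apod counts.

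**Figure D4:**
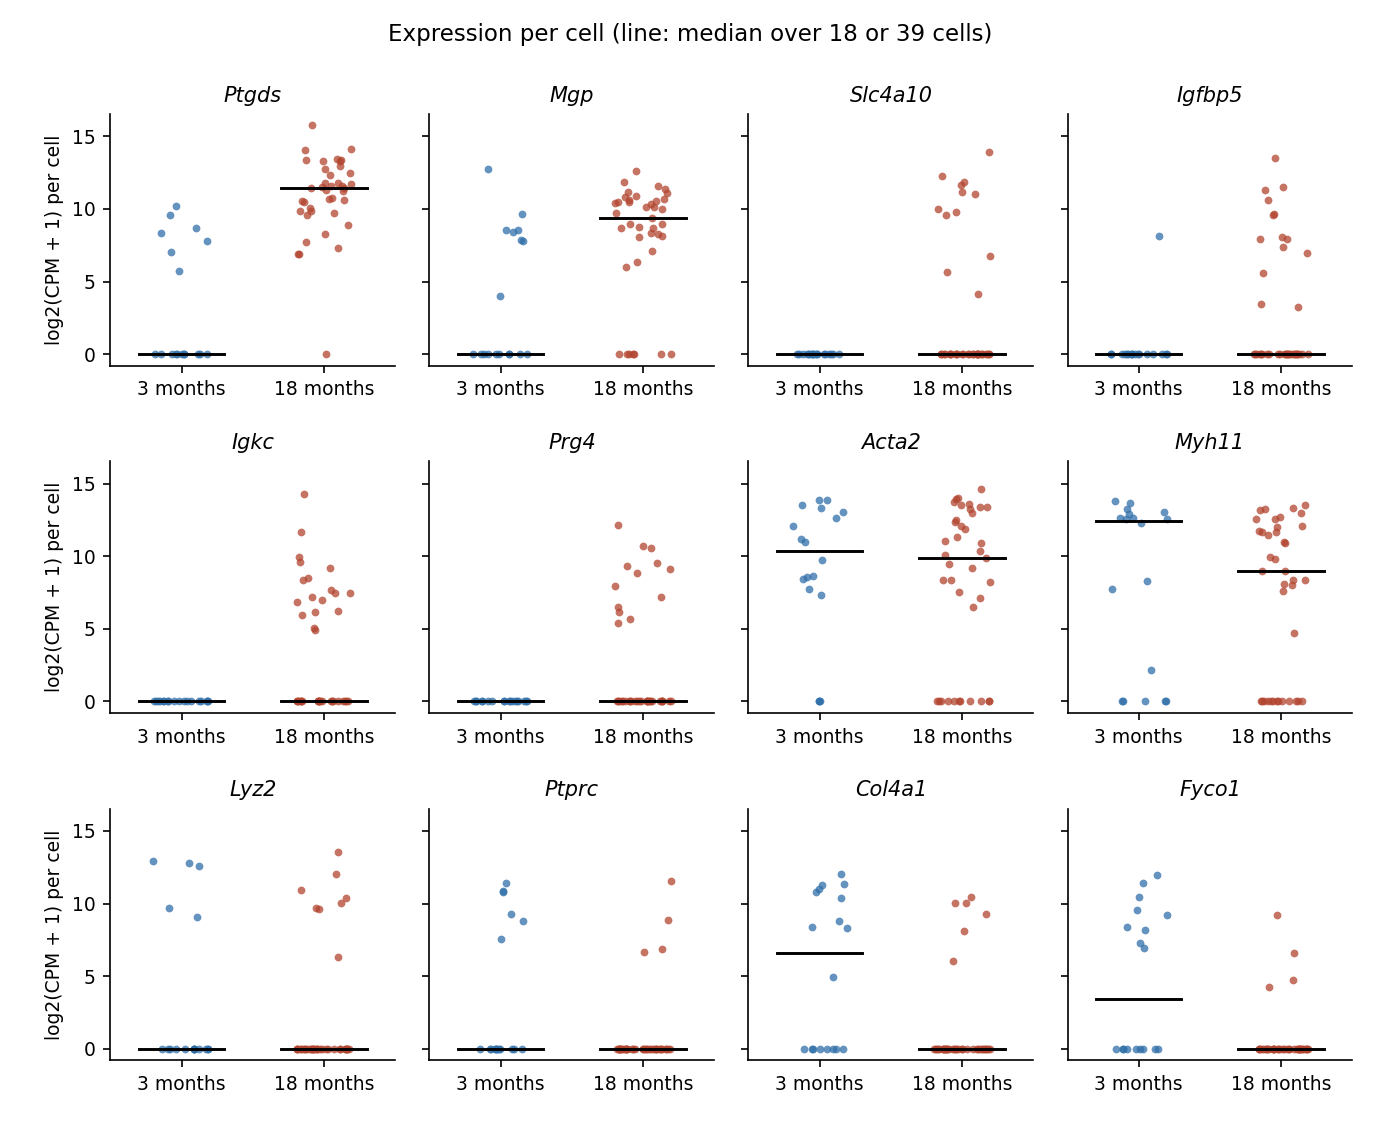
Per-cell expression as log2(CPM + 1) of 12 genes at 3 months (18 cells, blue) and 18 months (39 cells, red). Each point is a cell, moved sideways for visibility, and the line is the median. Ptgds and Mgp have a median above 0 only at 18 months, Slc4a10, Igkc and Prg4 have no younger cell above 0, and Acta2, Lyz2 and Myh11 overlap widely.

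Across all genes, the naming rule took stable genes of 50 CPM or more that were found in 25% of the cells, and in no fewer than 5, of the higher group. The 15 with the highest ratios were Slc4a10, Rfk, Rnaset2b, Jak1, Nbl1, Gjb6, Rbm3, Igkc, Supt5, Slc26a2, Ssb, Ecpas, Gm2a, Igfbp6 and Pgrmc1. Of these, 5 also had at most 3 counts in the anterior cells of 3 months, while 8 had 20 CPM or more there. Gjb6, a connexin of gap junctions in meningeal and glial cells, had 158.9 CPM in 12 of 39 cells and no count in posterior or anterior cells of 3 months (at least 63.7-fold higher). Nbl1, a secreted BMP antagonist, had 178.7 CPM in 13 cells, at a median of 307.005 CPM among them, and 7 counts in anterior cells of 3 months. It was at least 71.6-fold higher. Gjb6 was counted in 5 of the 12 cells with Slc4a10 and 7 of the other 27, and Nbl1 in 5 and 8.

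Several of the genes with no younger posterior count serve most cells. Rfk, the kinase that makes flavin mononucleotide, had 214.8 CPM in 10 older cells and 51.1 CPM in anterior cells of 3 months. Jak1, a cytokine receptor kinase, had 211.7 and 104.9 CPM in these groups, Rbm3, a cold-induced RNA-binding protein, 157.4 and 83.6 CPM, and Supt5, an elongation factor, 140.7 and 82.7 CPM. Their absence in 18 posterior cells of 3 months was thus not shared by the 16 anterior cells of that age. It also depended on which cells were kept. With cells of 300 or more genes, the log2 ratio went from 7.73 to 3.38 for Jak1, 7.31 to 4.22 for Rbm3 and 7.15 to 3.73 for Supt5. That of Rfk was 7.75 and 7.77. Ssb, an RNA chaperone, had 2 counts in 1 younger cell and 297.7 CPM in 15 older cells, a ratio of 178.95 with a log2 interval of 5.63 to 10.53. Pgrmc1, a haem-binding membrane protein, had 273.7 against 3.33 CPM (5.99).

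The 15 lowest were Med1, Plcb4, Ube2q1, Stx16, Dact3, Wwc2, Anp32b, Pde4b, Fyco1, Rab1b, Blmh, Grn, Wasf2, Ranbp1 and Eif3c. In 9 of them the anterior cells of 3 months also lay above the cells of 18 months, and 4 had at most 3 counts there. Med1, a subunit of the Mediator complex, had 123.1 CPM in 5 of 18 younger cells, at up to 1441 CPM, and 1 count in 39 older cells (log2 ratio -6.48, -13.62 to -5.81). Plcb4, a phospholipase C, was counted in 8 of 18 younger cells at a median of 487 CPM among them, and in 3 of 39 older cells (296.98 against 5.43 CPM, -5.53). Fyco1, an adaptor for transport along microtubules, was found in 9 of 18 and 4 of 39 cells (562 against 52.3 CPM, -3.40). Its locus overlaps Cxcr6 on the opposite strand, and the strand setting of the counting is not given in the sources used here. Grn, the lysosomal growth factor progranulin, was counted in 7 cells of each age (242.9 against 26.0 CPM, -3.18). Eif3c, a translation initiation factor, was in 11 of 18 and 14 of 39 cells (474 against 64.4 CPM, -2.86).

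Full-length libraries of the posterior meninges, titled by chip position, gave 67 kept cells at 18 months and 49 at 3 months. The age field of 30 of the 67 reads 3 months and thus goes against their titles, and 37 are left without them. The labels do not say whether both library kinds come from the same pools, so their values are set side by side with no joint estimate. Among the 2102 genes measured in both, 1155 (54.9%) had a positive full-length ratio. This share was 64.5% for the stably higher genes and 61.2% for the 85 stably lower genes, so in the full-length cells the stably lower genes did not lean downward. Without the 30 cells the shares were 60.8%, 68.0% and 58.6%. Of the 15 highest named genes 9 were measured there, 7 with a positive ratio and 5 at least 2-fold higher. Of the 15 lowest, 6 were measured, 3 with a negative ratio and 1 at least 2-fold lower. Without the 30 cells, 10 of the highest were measured, 8 positive and 6 at least 2-fold, and 5 of the lowest, 3 negative and 1 at least 2-fold lower. With all titled cells, Rfk (3.90), Ssb (4.01), Igkc (4.58), Igfbp6 (2.74) and Gm2a (1.61) had a positive ratio of 2-fold or more. Slc26a2 (0.71), Jak1 (0.36), Rnaset2b (-0.34) and Supt5 (-1.14) did not. Slc4a10 lay below a mean of 20 CPM in the full-length set, with 20.3 against 7.18 CPM in 8 of 67 and 1 of 49 cells, and 11.5 CPM in 2 of the 37. Slc47a1 (1.79) and Abcg2 (1.86) were at least 2-fold higher there too, while Col1a1 stood at -0.80, Col4a1 at 1.85 and Mgp at 1.097.

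**Figure D5:**
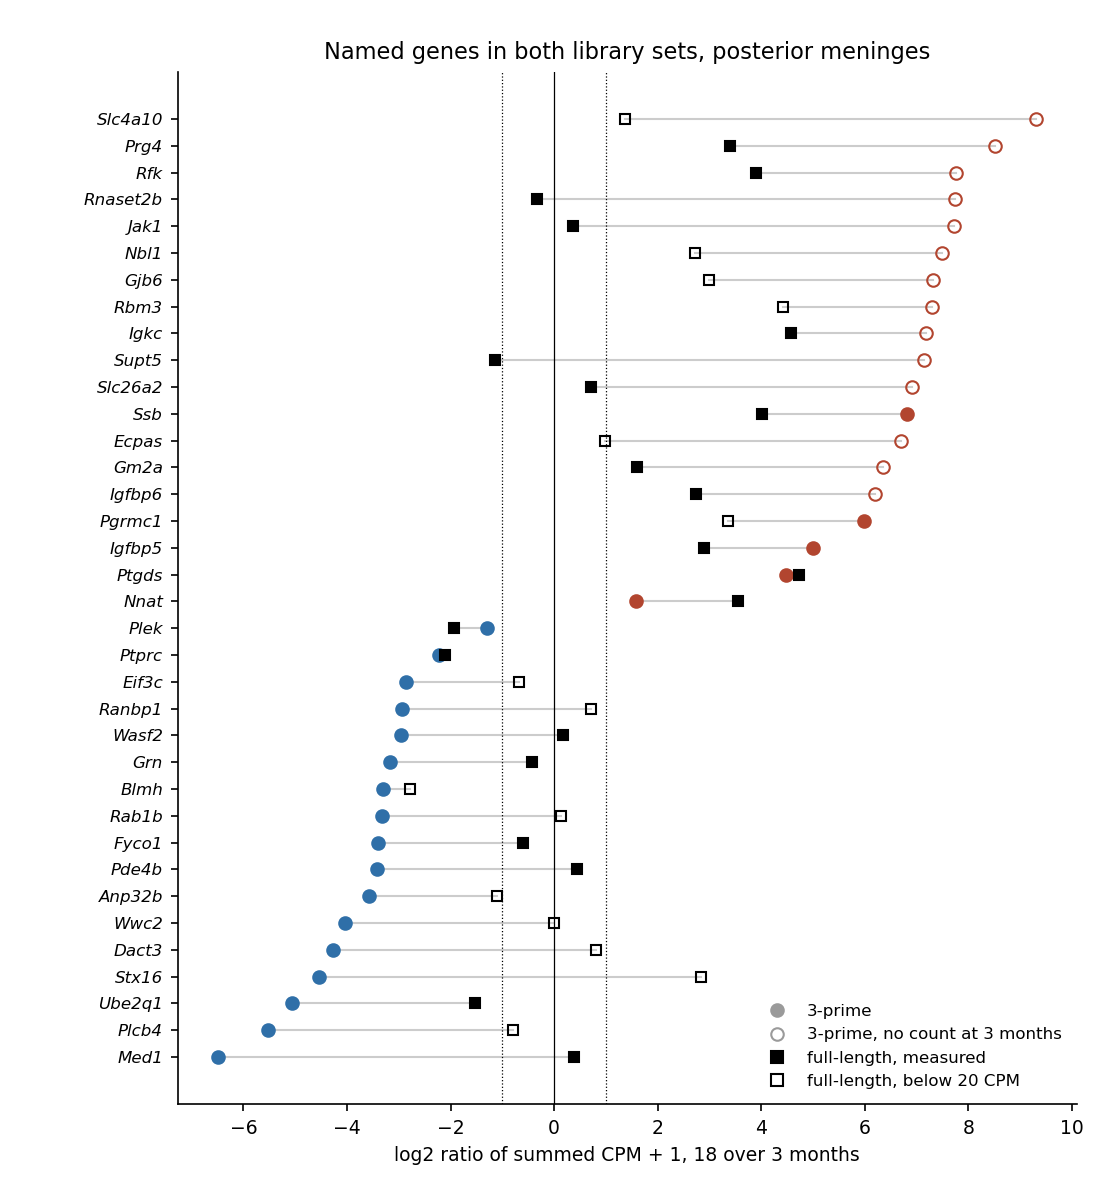
Log2 ratios of 18 over 3 months for the 36 named genes, in 3-prime cells (circles) and full-length cells (squares), sorted by the 3-prime value. Open circles had no count at 3 months, so their place depends on the 1 CPM added, and open squares fall below a mean of 20 CPM. Ptgds and Ptprc lie close together in both sets, and of the 15 lowest genes only Ube2q1 is measured and 2-fold lower in both.

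In GRCm38 (mm10), Slc4a10 lies on chromosome 2 at 62046462 to 62326730 on the plus strand and Ptgds on chromosome 2 at 25466709 to 25470046 on the minus strand. Igkc lies on chromosome 6 at 70726435 to 70726966, Igfbp5 on chromosome 1 at 72857932 to 72874884 and Plcb4 on chromosome 2 at 135659011 to 136014593, where GENCODE M21 also places predicted genes on both strands. Counts are per gene, so exons and introns were not separated.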

How the data were processed

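Values are counts, deposited by the authors as a single unnormalised matrix of genes by cells, per the file headers. Alignment used STAR 2.7.0a and mm10, per the submitters' processing notes; which program counted, with which strand setting and annotation, is not given in the sources used here. In all, the table has 39179 Ensembl IDs, of which 37693 matched a symbol in GENCODE M21. Of 472 columns, 144 were not used here.

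Groups come from the titles. Counts of cells with at least 500 genes were summed per group, divided by the total and given as CPM. Log2 ratios have 1 CPM added. Intervals are exact 95% (conditional binomial for ratios, without the added CPM, and Clopper-Pearson for shares). Those of shares take the cells of 1 pool as units, so they serve as no test between ages. With 1 pool per age no test was possible. No doublet caller was used. Wells under 500 genes were described apart.

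The comparison and the 49 gene lists were chosen with earlier results of these data known. Named genes are the 15 highest and 15 lowest that were stably higher or lower, at 50 CPM or more and counted in at least 25% and at least 5 cells of the higher group, without mitochondrially encoded, ribosomal protein, predicted or pseudogenes. From each list the text takes the 2 highest and 2 lowest members and those whose role a sentence is about. Some members that this rule names are not reported here. Ptgds, Igkc, Nnat, Prg4, Slc4a10, Igfbp5, Ptprc and Plek were named in any case, and Gja1 was named after its values were seen. Alternatives were other limits on genes per cell and on CPM, the mean of per-cell CPM, totals without mitochondrially encoded genes, centring, 10 CPM added, single cells left out, and thinning to 5000 counts. Python 3.11.15, pandas 2.3.3, numpy 2.4.6, scipy 1.17.1 and matplotlib 3.10.9 were used, and the scripts were tested on simulated counts.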

Additional observations from a re-analysis of the deposited data

Results flagged for a closer look

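Wells with fewer than 500 genes took no part in the comparison. In them, Ptgds, Igkc, Gjb6, Nnat, Prg4 and Slc4a10 were looked up, all already known to be higher in the older kept cells. All but Slc4a10 stood more than 2-fold above both groups of younger wells. Slc4a10 had 236.5 CPM in the older wells, 0 in the younger posterior and 178.3 CPM in the younger anterior wells. As the genes were picked by their values, they do not speak for other genes. The 14 older wells had a median of 9951 counts, the 19 younger posterior wells 5278 and the 10 younger anterior wells 2653. Ptgds stood at 16070 CPM in the older wells, against 1403 and 1030 CPM in the younger posterior and anterior wells. Igkc had 302.2 CPM in 4 of 14 older wells and no count in younger ones. Gjb6 had 328.5 CPM, from 3 of 14 older wells, and no count in younger wells. Nnat had 348.2 CPM from 3 older wells and 1 count in 1 younger posterior well. Prg4 had 236.5 CPM from 2 older wells and no count in younger wells. Igfbp5, by contrast, had 328.5 CPM in the older and 290.6 and 753 CPM in the younger posterior and anterior wells. With 1 pool per age, none of these differences was tested.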

How the results depend on the processing

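All 30 genes named for their ratio stayed at least 2-fold, in the same direction, under the 11 alternatives tried. Of the 6 others named in any case, Plek did not, at -0.93 among cells with at least 1000 genes. For the 30 the outcome was in part set by how they were picked. Their rule already asked for 2-fold in the mean of per-cell CPM, and the filters on CPM leave a gene's ratio unchanged. Genes no longer measured under an alternative were counted too, such as Igkc and Med1 among cells with at least 1000 genes. That all 30 passed therefore says little about how stable their ratios are. Counts of genes moved more. As reported, 1656 were at least 2-fold higher, 1431 lower, 9.41% and 3.54% of measured genes stably higher and lower, and 2603 differed 2-fold between anterior and posterior cells of 3 months. With a mean of at least 50 CPM required, 787 were higher, 901 lower, 8.49% stably higher, and 1665 differed between the 3-month groups. With no filter the values were 5317, 3286 and 7819, with 6.26% stably higher and 1.899% stably lower. Without the highest cell of each gene they were 1041, 571 and 1381, with 15.0% and 5.65%. Thinning to 5000 counts gave 16.9% stably higher and 7.596% stably lower, and the mean of per-cell CPM gave 5.72% stably lower. By the mean of per-cell CPM the senescence and p53 list turned from 1.158 to -0.029 and the lipid handling list from 1.3295 to -0.028. The senescence list was -1.34 after thinning, and the interferon list turned from -1.06 to 0.13 without the deepest cells. The causes were not tested. Over these alternatives, 84 ratios of single named genes lay outside the counting interval of the reported value. Without the 30 full-length cells whose title and age field disagree, 60.8% in place of 54.9% of genes had a positive full-length ratio. That ratio went from 0.43 to -0.93 for Pde4b, 0.18 to -0.46 for Wasf2, 0.71 to 0.20 for Slc26a2, 0.39 to 1.07 for Med1, 1.61 to 2.36 for Gm2a, -1.52 to -2.41 for Ube2q1, 4.73 to 5.04 for Ptgds and -2.10 to -1.49 for Ptprc. No paired analysis was possible because each age is 1 pool. Depth limits genes with few counts: 3 counts are 1.163 CPM at 18 months and 2.496 CPM at 3 months.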

Other observations

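Of 10 measured clock and glucocorticoid-induced genes, 6 were 2-fold or more higher (4 stably) and 1 lower, against 33.4%, 9.41% and 28.8% of all measured genes. The median log2 ratio was 1.83, beside 0.07 over all genes. Per3, a period gene of the clock, had 96.9 CPM in 7 older cells, and Fkbp5, a glucocorticoid-induced chaperone, 73.3 CPM in 8. Neither had a count in posterior or anterior cells of 3 months (at least 38.8-fold and 29.4-fold higher). Hlf, a clock output factor, was lowest (-2.26), with 99.4% of its younger counts in 1 cell, and Sgk1, another glucocorticoid target, stood at -0.41. The labels give no hour of collection, so time of day and age cannot be told apart.

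Of 32 measured nuclear genes of the respiratory chain, 9 were at least 2-fold higher, 6 of them stably, and 3 lower, with a median of -0.09. The shares over all measured genes were 33.4%, 9.41% and 28.8%. Sdhb, a subunit of succinate dehydrogenase, had 104.3 against 6.66 CPM (3.78) in 11 and 2 cells, and Cox5b, a subunit of cytochrome oxidase, 264.8 against 23.3 CPM (3.45) in 15 and 4. The lowest were Atp5g1 (-1.57) and Ndufa4 (-1.13). The 15 mitochondrially encoded genes were within 2-fold except mt-Nd3 (-1.42), which was stably lower. Immediate early genes, which respond to handling of tissue, had 19 measured members, 2 of them 2-fold or more higher and 4 lower (median 0.09). Fos had 4857 against 2968 CPM (0.71), Klf4 was highest at 1.504, and Ier3 (-2.64) and Nfkbia (-2.34) were lowest.

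Patterning transcription factors had 5 of 12 measured members at least 2-fold higher and 2 lower, beside 33.4% and 28.8% (median 0.66, and 1.95 by mean per-cell CPM). Foxp2 had 63.97 CPM in 5 older cells and no count in posterior cells of 3 months, and Alx4 stood at 3.60. Nr2f1 was lowest (-1.31), while Nr2f2, a related nuclear receptor, was stably higher (326.8 against 83.2 CPM, 1.96). Nnat, an imprinted gene, was counted in 12 of 39 and 5 of 18 cells (44.2 against 14.1 CPM, 1.58, interval 0.90 to 2.473).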
